A study of Mus musculus with 36 samples.

Results

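Aminoacyl-tRNA synthetases are the enzymes that load each transfer RNA with its amino acid. The 37 genes described here are the protein-coding genes whose symbols follow the naming of this family, out of 56980 genes in the count table. They were split by name into 20 genes of the cytosolic enzymes and 17 genes of the mitochondrial enzymes, whose symbols end in 2. All 37 passed the filter on low counts and were tested. Gene symbols follow the GENCODE M21 name table, so the cytosolic genes carry their older names, such as Mars for the methionine enzyme.

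RNA was measured by polyA-selected sequencing in brain tissue of 36 mice aged 37 to 45 days, which were either Ndufs4 knockout (label ndufs4-ko, here KO) or wild type (WT). Each mouse had received vehicle or the small molecule CP2, which inhibits complex I of the respiratory chain, by gavage on 3 days in a row. The titles add a letter, F or M, which gave 8 groups. With letter F, each combination of genotype and treatment held 5 samples. With letter M, the CP2 groups of KO and WT held 5 samples each and the vehicle groups of both genotypes 3 each. The design text names hippocampus and cortex, while the tissue label of every sample is brain. Neither the strain, the allele behind the KO label nor the composition of the vehicle is given in the labels. The labels do not say whether samples of a group came from separate litters or batches.

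Cytosolic synthetases supply the ribosomes of the cytoplasm, and several of them, among them those for methionine, lysine, aspartate and isoleucine, sit in a shared multi-enzyme complex. The mitochondrial synthetases are encoded in the nucleus, imported into mitochondria and supply the mitochondrial ribosomes, which make core subunits of the respiratory complexes, complex I included. Gars and Kars each encode both forms and were counted with the cytosolic class. Several cytosolic synthetase genes are known targets of ATF4, the transcription factor of the integrated stress response, which is turned on when mitochondria or amino acid supply fail. Inherited defects of mitochondrial synthetases are known to cause disorders of brain white matter and muscle.

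Promoter sequences from the RefSeq table of build GRCm38.p6 were found for 27 of the 37 genes, 13 cytosolic and 14 mitochondrial. Each covers 250 bases before to 50 bases after the start of the gene. The C/EBP-ATF response element, searched as TGATGNAA on both strands (TTNCATCA on the other), is the element through which ATF4 is known to act. It was present in 5 of the 13 cytosolic promoters (38.5%) and in 0 of the 14 mitochondrial ones, against 4.13% of 17491 promoters of protein-coding genes. The matches in 4 of these promoters are shown because the element was found in the cytosolic class alone. Each line gives the strand of the gene, 5′ to 3′, with the match in capitals.
Gars, chr6:55037961-55037988, plus strand: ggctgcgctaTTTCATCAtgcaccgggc
Iars, chr13:49682127-49682154, plus strand: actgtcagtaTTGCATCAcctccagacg
Tars, chr15:11399656-11399683, minus strand: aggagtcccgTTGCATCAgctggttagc
Yars, chr4:129189896-129189923, plus strand: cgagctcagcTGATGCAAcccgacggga

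With the annotated start as base 0, the first base of these 4 matches lay between -30 and 7. The palindromic core of the NRF1 motif, CGCATGCG, was searched in the same way. NRF1 is a known activator of nuclear genes for mitochondrial proteins. The core was found in 0 of the 13 cytosolic promoters and in 2 of the 14 mitochondrial ones (14.3%), against 2.77% of promoters of protein-coding genes. These are the 3 matches, with the motif in capitals.
Vars2, chr17:35667622-35667649, minus strand: gagtcttttaCGCATGCGcctgcgtgtc
Vars2, chr17:35667596-35667623, minus strand: tccccgcccaCGCATGCGcgcgcacctc
Wars2, chr3:99141017-99141044, plus strand: agaggacaggCGCATGCGtagtaagcac

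The E-box CACGTG, a palindrome read by MYC-type factors, occurred in 4 cytosolic promoters (30.8%; Aars, Farsb, Iars and Tars) and in 1 mitochondrial promoter (7.14%; Ears2), against 8.91% of promoters of protein-coding genes. A match describes only the letters in these windows. No binding was measured here.

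Depth ranged from 46124548 to 88559920 gene counts per sample. Of all reads in the table, 5.09% to 13.2% lay outside annotated genes, and this share differed between groups, with values given beside the results. Ndufs4, the targeted gene, was lower in KO but was not absent. Its level ran from 27.4 to 39.1 CPM (counts-per-million) in KO and from 38.9 to 62.8 CPM in WT samples, and KO was lower than WT with vehicle (log2 fold change -0.65 ± 0.0696 SE, adjusted p = 3.752e-07) and with CP2 (-0.45 ± 0.06 SE, adjusted p = 3.207e-06). In letter M, the KO samples had more Ndufs4 with CP2 than with vehicle (log2 fold change 0.34 ± 0.0993 SE, adjusted p = 0.0368), a call lost when the share of reads outside annotated genes entered the fit. Neuron, astrocyte, oligodendrocyte and microglia markers were detected in every sample. Xist separated the letters, except that the KO CP2 sample L291 of letter M held 45.8 CPM of total counts where the next highest M sample held 0.868 and the F samples 434.4 to 789.4. In another sample of that group, L266, the most abundant gene without a symbol in the name table, ENSMUSG00000119584, took 1.01% of counts. Results that rest on KO with CP2 were therefore also computed without L266 and L291.

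Per kilobase of exon, the cytosolic genes stood above the mitochondrial ones. The median gene level was 12.4 CPM per kilobase in the cytosolic class and 3.25 in the mitochondrial class. The highest cytosolic genes were Nars for asparagine (41.3 ± 2.12 CPM per kilobase, SD, n = 36), Gars for glycine (36.6 ± 1.82) and Hars for histidine (29.4 ± 2.90). The difference between Nars and Gars was larger than either SD, while Hars was followed by Sars for serine at 29.3 ± 1.28, a difference far inside their SDs. The lowest were Tars for threonine (4.78 ± 0.378), Eprs for glutamate and proline (4.87 ± 0.222) and Cars for cysteine (5.02 ± 0.435), which did not differ beyond their SDs. Exon length here joins all annotated exons of a gene and was longest for Eprs (18102 bases). Before division by length Eprs averaged 88.1 CPM, Tars 28.2 CPM and Cars 33.05 CPM, so the low rank of Eprs depends on that length. In the mitochondrial class Lars2 for leucine stood first at 65.9 ± 63.0 CPM per kilobase, an SD nearly as large as the mean. Iars2 for isoleucine (6.28 ± 0.421) and Rars2 for arginine (5.20 ± 0.505) followed. Wars2 for tryptophan (1.32 ± 0.167), Ears2 for glutamate (1.35 ± 0.272) and Cars2 (1.37 ± 0.205) were lowest and lay within 1 SD of each other.

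**Figure D1:**
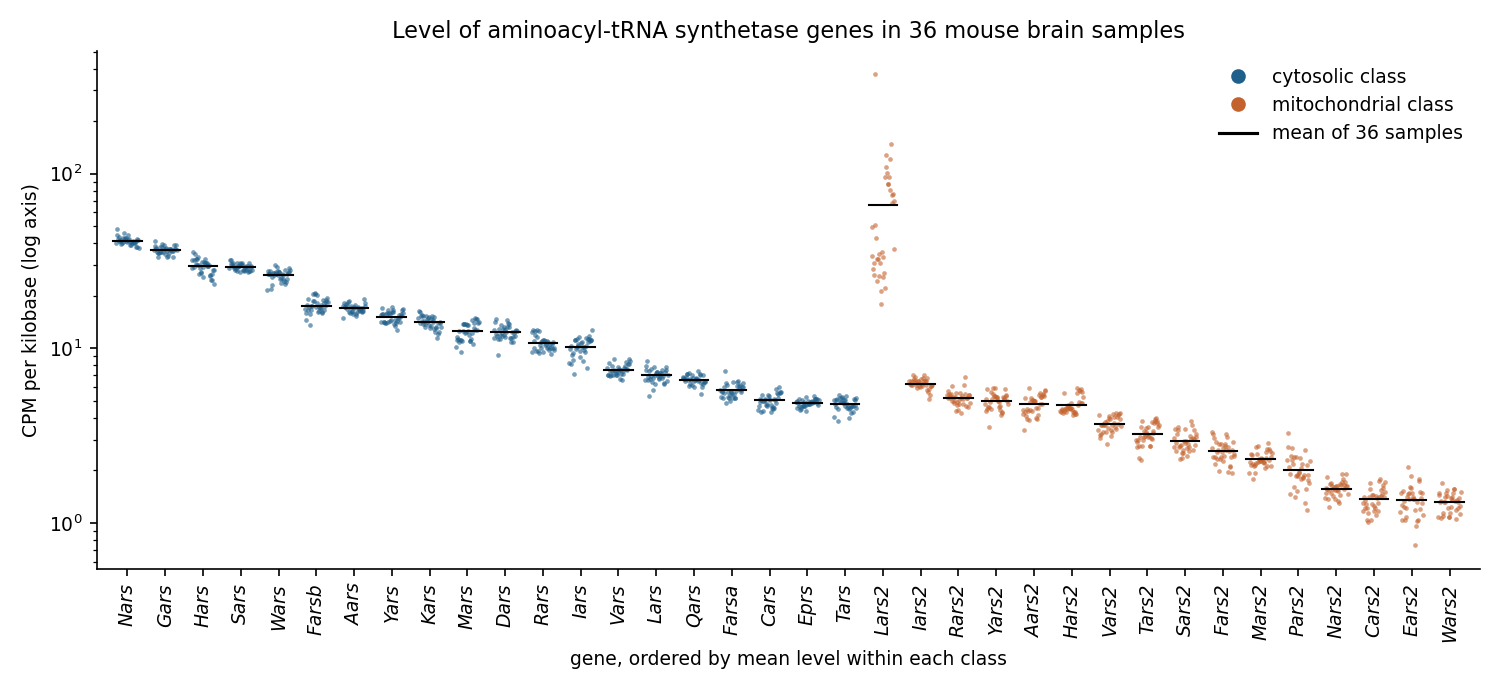
Level of 36 of the 37 synthetase genes in CPM per kilobase of exon (log axis), with genes ordered by mean level within the cytosolic (blue) and mitochondrial (orange) class, a point for each of the 36 samples and a black line at the mean. Cytosolic means run from 4.78 to 41.3, and mitochondrial means from 1.32 to 6.28 apart from Lars2, whose samples spread over a 20.6-fold range.

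Set against its partner for the same amino acid, the cytosolic gene was the higher one in 17 of 18 pairs. The ratio of mean levels per kilobase ran from 1.47 for Tars over Tars2 to 26.3 for Nars over Nars2, with a median of 3.59 over the 17. The exception was leucine, where Lars stood at 0.106 of Lars2. The mitochondrial class varied more between samples. The median coefficient of variation over 36 samples was 7.95% in the cytosolic class and 12.7% in the mitochondrial class, although Iars2 was at 6.70%. The mitochondrial genes also had fewer counts, and the part of counting error in this gap was not tested. Sars was the steadiest of all (4.39%), Iars the most variable cytosolic gene (12.4%), and Pars2 for proline the second most variable of the mitochondrial class (21.6%) after Lars2 (95.5%).

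Lars2 behaved unlike the other 36 genes. With letter F its level lay between 199.6 and 559.7 CPM in 19 of 20 samples and reached 4110 CPM in the KO vehicle sample L246. With letter M it lay between 752.9 and 1631 CPM, except in L266 (246.1 CPM) and in the WT vehicle sample L303 (413.0 CPM). Its level followed the share of counts taken by ENSMUSG00000119584, the most abundant of the genes without a symbol in the name table. Within the 20 F samples Pearson's r was 0.959 and Spearman's rho 0.839, and within the 16 M samples they were 0.954 and 0.953. The permutation p was 1e-05 for each, raw and adjusted over F and M within each coefficient, the smallest that 100000 resamples can give. Without the 2 samples farthest from the median share, r was 0.799 in F (n = 18) and 0.945 in M (n = 14). Both measures are shares of the same library. Lars2 is therefore set apart in the comparisons, and class medians are also given without it.

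**Figure D2:**
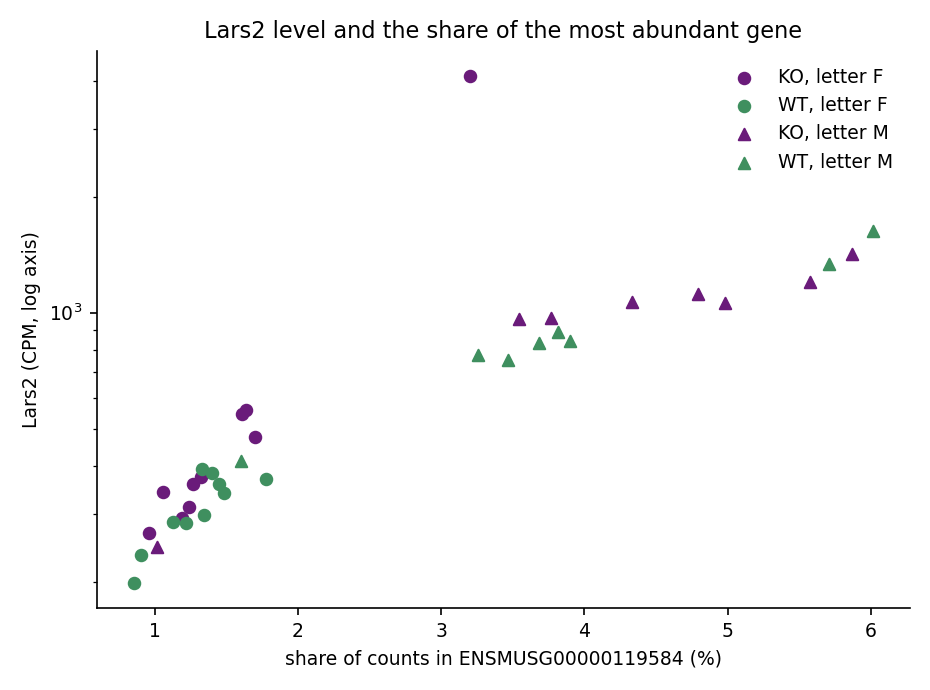
Lars2 level (CPM, log axis) against the share of gene counts in ENSMUSG00000119584 (percent), with 1 point per sample, circles for letter F and triangles for letter M, purple for KO and green for WT. Samples rise together on both axes, the KO vehicle sample at 4110 CPM stands alone with a share of 3.20%, and 2 triangles lie among the circles.

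KO mice given vehicle were compared with WT mice given vehicle to find what the loss of Ndufs4 alone goes with. Averaged over F and M, 5 of the 37 genes were called at an adjusted p under 0.05 (edgeR's quasi-likelihood test with Benjamini-Hochberg adjustment), and all 5 were lower in KO. Among all genes tested, 6.67% were called. The 5 were Mars, Farsb, Yars and Wars of the cytosolic class and Yars2 of the mitochondrial class. The median log2 fold change was -0.0395 over the cytosolic genes, -0.0038 over the mitochondrial genes without Lars2, and 0.0221 over all genes tested. In F alone 4 genes were called, 3 lower and Lars2 higher, against 4.96% of all genes. In M alone, with 3 samples a side, edgeR called 0 of 37, 4 had an unadjusted p under 0.05, DESeq2 also called 0, and 0.516% of all genes were called. An unadjusted p under 0.05 was reached by 12.2% of all genes in M. The difference between the KO effects in F and in M was called for 0 of the 37 genes and for 0.102% of all genes.

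Mars encodes the cytosolic enzyme for methionine, the amino acid that starts every cytosolic protein. In F with vehicle its level was 32.6, 36.9, 37.4, 38.01 and 38.4 CPM in KO and 42.3, 43.2, 46.3, 46.5 and 47.1 CPM in WT. The F groups did not overlap. In M it was 36.4, 44.9 and 49.5 CPM in KO and 47.8, 48.2 and 50.4 CPM in WT, so that 1 KO sample lay among the WT samples. The log2 fold change was -0.23 ± 0.0581 SE on average (adjusted p = 0.0123) and -0.30 ± 0.0712 SE in F (adjusted p = 0.0124).

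Yars and Yars2, the cytosolic and mitochondrial enzymes for tyrosine, were both lower in KO. Yars2 was measured at 11.1, 14.1, 14.4, 14.4 and 15.6 CPM in KO and 16.3, 16.6, 16.6, 16.7 and 18.7 CPM in WT of letter F. The M samples were 13.0, 13.4 and 13.6 CPM in KO and 15.1, 15.8 and 16.8 CPM in WT. With either letter every KO sample lay under every WT sample (log2 fold change -0.27 ± 0.0697 SE on average, adjusted p = 0.0148). For Yars the F samples were 83.0, 83.2, 83.5, 84.0 and 93.4 CPM in KO and 85.7, 93.4, 95.8, 98.1 and 103 CPM in WT, which overlap. In M, 76.0, 85.3 and 88.2 CPM in KO stood under 94.3, 98.4 and 99.1 CPM in WT, and the average log2 fold change was -0.19 ± 0.0504 SE (adjusted p = 0.0165).

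Farsb encodes the beta subunit of the cytosolic phenylalanine enzyme, whose alpha subunit is encoded by Farsa. Levels of Farsb in F were 35.8, 41.3, 43.6, 45.0 and 45.7 CPM in KO and 45.3, 47.4, 52.9, 53.6 and 54.2 CPM in WT, with 1 KO sample above the lowest WT sample. In M they were 41.7, 42.3 and 46.2 CPM in KO and 48.0, 49.2 and 50.7 CPM in WT, without overlap. The average log2 fold change of Farsb was -0.22 ± 0.0588 SE (adjusted p = 0.0164), while that of Farsa was 0.11 ± 0.0647 SE and not called (adjusted p = 0.336). Of the exon bases of Farsb, 9.5% are shared with Sgpp2 on the opposite strand. Wars, for tryptophan, had the smallest of the 5 differences (log2 fold change -0.18 ± 0.0524 SE, adjusted p = 0.0312). Its M samples did not overlap (79.9, 84.0 and 86.0 CPM in KO, 93.7, 96.6 and 98.7 CPM in WT), and in F the KO samples ran from 75.8 to 93.5 CPM with a median of 88.4 against 90.6 to 100.7 CPM with a median of 94.4 in WT.

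With 1 sample left out, the average count of 5 became 1 without L319, 2 without L300 and 3 without L285 or L322, all of letter M, while Mars kept its call in 15 of 16 such fits. All 5 vehicle calls were lost when the share of reads outside annotated genes entered the fit, and when 2 surrogate variables did. That share averaged 9.24% in KO and 5.995% in WT of letter F, and 12.1% and 10.2% in letter M. Red cell markers moved in the same comparison: 4 of 5 were called lower in KO (median log2 fold change -1.97), with all 5 detected in every sample and summed levels from 38.6 to 128.7 CPM in KO and from 85.1 to 647.5 CPM in WT. Of the 5 hippocampal CA markers, all detected in every sample, 3 were called lower in KO of letter F (Neurod6, Spink8 and Hpca, median of the list -0.50) and 0 in M (median 0.55), with sums in F of 573.4 to 802.5 CPM in KO and 718.4 to 1067 CPM in WT, and in M of 740.4 to 897.2 and 575.8 to 621.9 CPM. Averaged over F and M, 1 CA marker was called with vehicle, Wfs1, which was higher in KO (log2 fold change 0.56 ± 0.13 SE, adjusted p = 0.00811). This call was lost with a term for reads not in genes (adjusted p = 0.0781). Wfs1 was also higher in KO with CP2 (0.51 ± 0.113 SE, adjusted p = 0.00293), a call kept under all 11 other settings. With a score of the CA markers in the fit the 5 average synthetase calls with vehicle were kept and the F call of Farsb was lost. The part of the red cell markers in the synthetase differences was not tested. In bulk tissue, fewer cells of a type and less RNA per cell cannot be told apart.

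The size of the Lars2 estimate in F rested on 1 sample. The KO samples were 267.8, 360.2, 475.3, 559.7 and 4110 CPM and the WT samples 235.7, 285.1, 299.5, 370.3 and 392.2 CPM, which overlap. The log2 fold change was 1.87 ± 0.528 SE (adjusted p = 0.0387) and 0.40 without L246 (adjusted p = 0.556). In that sample ENSMUSG00000119584 took 3.20% of counts, above every other F sample. The Lars2 call was lost in 6 of 10 fits that left out 1 sample, those without L246 and without each WT sample. It was also lost under 5 of 11 other settings.

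Between KO and WT mice given CP2 more of these genes were called, with M groups of 5 samples where the vehicle groups held 3. An unadjusted p under 0.05 was reached on average by 18 of the 37 with CP2 and by 16 with vehicle. Among all genes tested, 24.9% and 21.6% reached it. On the average of both letters 13 of the 37 synthetase genes passed the threshold, 8 with less and 5 with more RNA in KO, against 11.6% of all genes tested. Of the cytosolic class Hars, Kars and Dars were higher and Mars, Iars and Cars lower. Of the mitochondrial class Fars2 and Iars2 were higher and Tars2, Aars2, Hars2, Mars2 and Ears2 lower. The median log2 fold change was -0.0081 over the cytosolic genes and -0.0868 over the mitochondrial genes (-0.0978 without Lars2), beside 0.0119 over all genes tested. The estimates of all 13 had the same sign in F and in M. In M alone 10 genes were called, 5 in each direction, against 9.99% of all genes. In F alone edgeR called 0 of 37, 4 had an unadjusted p under 0.05, DESeq2 called 0, and 2% of all genes were called. An unadjusted p under 0.05 was reached by 15.7% of all genes in F. The test of the difference between F and M called 0 of the 37 genes and 0.82% of all genes, so a difference between the letters was not shown for any of them. Mars was the only gene called on average with vehicle and with CP2, and these comparisons share no samples.

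**Figure D3:**
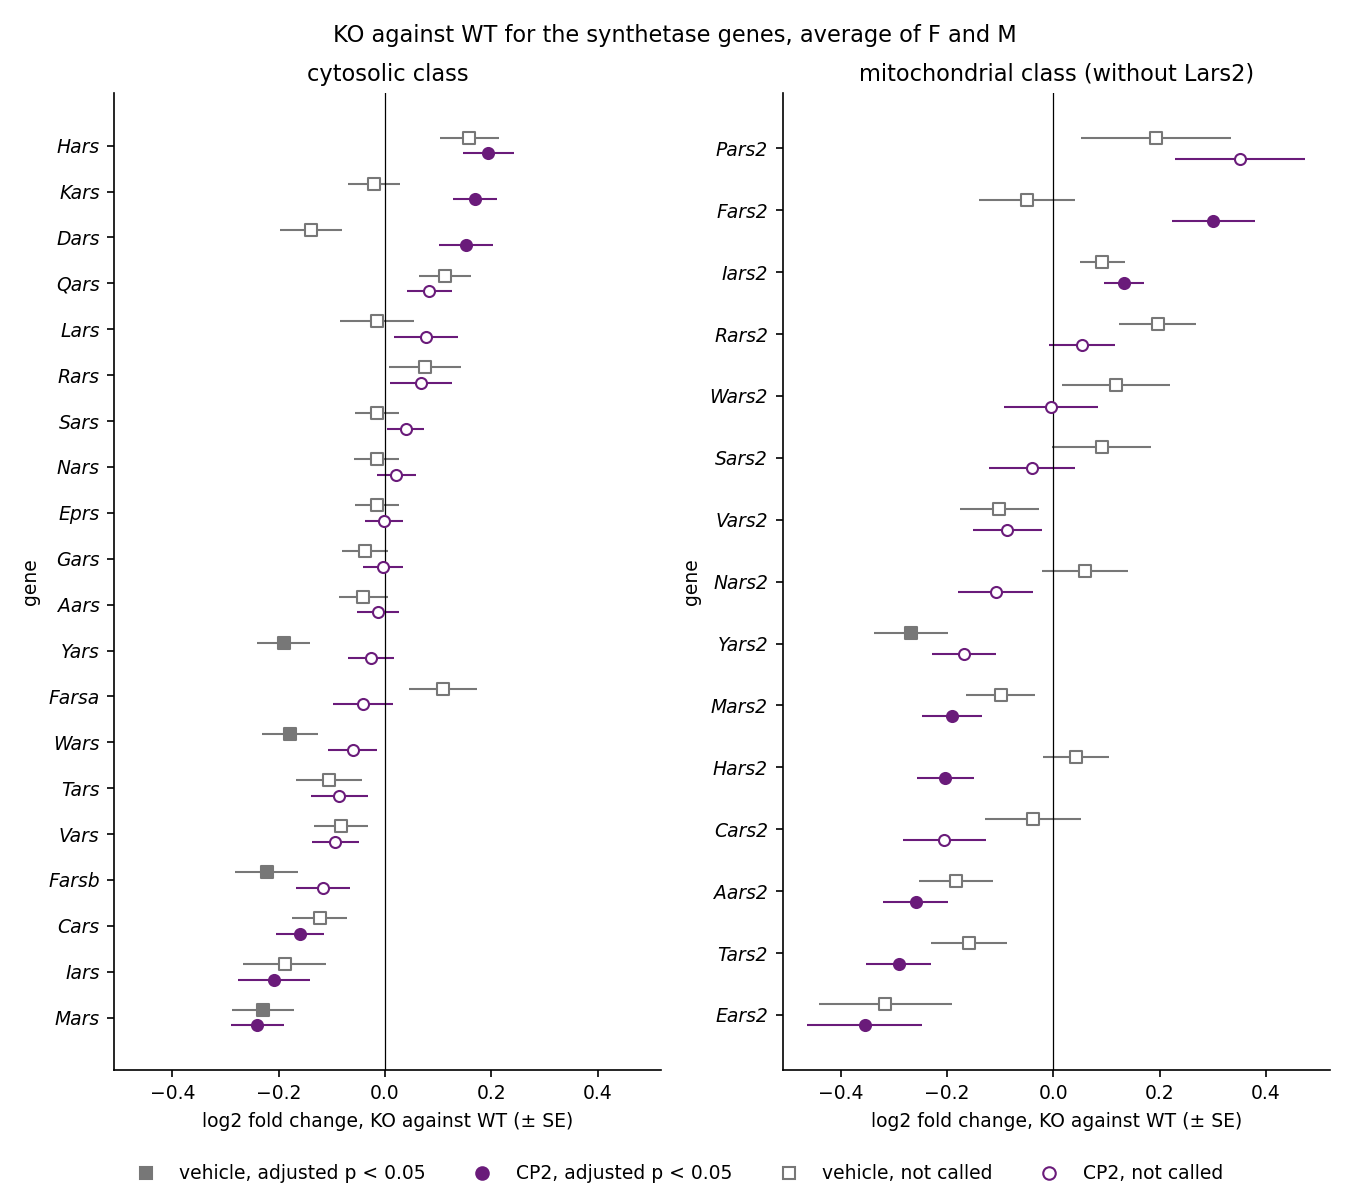
Log2 fold change (± SE) of KO against WT for the synthetase genes, averaged over F and M, with vehicle (grey squares) and with CP2 (purple circles); filled symbols have an adjusted p under 0.05, and Lars2 and 1 uncalled mitochondrial gene are not drawn. With vehicle the 5 filled symbols lie left of 0, and with CP2 the filled symbols lie on both sides, 5 right and 8 left.

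Of the cytosolic genes, Mars again had the largest decrease on average. With CP2 its F samples were 34.6, 38.2, 38.6, 39.9 and 43.1 CPM in KO and 42.0, 43.1, 46.9, 46.9 and 47.4 CPM in WT, with slight overlap. In M they were 37.9, 37.9, 38.6, 41.0 and 41.8 CPM in KO and 43.4, 43.7, 47.6, 50.1 and 51.3 CPM in WT, without overlap. The average log2 fold change was -0.24 ± 0.0503 SE (adjusted p = 0.00112). Mars2, its mitochondrial partner, was also lower (log2 fold change -0.19 ± 0.0563 SE, adjusted p = 0.0208), with KO samples of 21.8 to 27.8 CPM and WT samples of 25.0 to 32.3 CPM over both letters. Mars shares 2% of its exon bases with Ddit3, a stress response gene on the opposite strand, which was not called (log2 fold change -0.08 ± 0.0652 SE, adjusted p = 0.505).

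Iars, for isoleucine, was lower in KO with CP2 (log2 fold change -0.21 ± 0.068 SE, adjusted p = 0.0386). Its M samples were 44.7, 49.96, 51.4, 53.5 and 53.7 CPM in KO and 57.0, 57.9, 59.3, 59.5 and 61.7 CPM in WT, without overlap. In F the KO samples were 42.6, 43.3, 48.1, 52.5 and 54.5 CPM against 52.4, 53.3, 54.0, 56.0 and 59.9 CPM in WT, which overlap. Its mitochondrial partner moved the other way. Iars2 was higher in KO (0.13 ± 0.0372 SE, adjusted p = 0.015), with 55.8, 57.7, 57.9, 59.9 and 62.3 CPM in KO and 45.2, 48.1, 49.7, 51.1 and 52.0 CPM in WT of letter M. In F the Iars2 samples of KO (54.4 to 57.8 CPM) lay inside those of WT (52.4 to 57.7 CPM) but for the highest. Of the exon bases of Iars2, 22.9% are shared with Rab3gap2 on the opposite strand. Iars lost its call without L266 and L291 (adjusted p = 0.101) and in 9 of the 20 fits that left out 1 sample.

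Cars was called through letter M. There the KO samples were 28.5, 29.6, 29.8, 29.95 and 30.4 CPM and the WT samples 34.3, 36.2, 36.7, 38.4 and 39.3 CPM, without overlap (log2 fold change in M -0.32 ± 0.0636 SE, adjusted p = 0.000843). In F the estimate was -0.0017 ± 0.0636 SE (adjusted p = 0.994), with samples from 29.3 to 33.9 CPM in KO and from 30.6 to 33.5 CPM in WT. The average of -0.16 ± 0.045 SE (adjusted p = 0.015) is the mean of both values, whose difference was not called.

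Hars and Hars2, the cytosolic and mitochondrial enzymes for histidine, are neighbouring genes on opposite strands that share 195 exon bases. They went in opposite directions in KO with CP2. Hars in M was 72.8, 75.1, 75.4, 75.7 and 79.7 CPM in KO and 59.8, 60.0, 63.7, 64.3 and 65.2 CPM in WT. Hars2 in the same samples was 18.0, 18.1, 18.4, 18.5 and 18.6 CPM in KO and 20.7, 21.1, 24.3, 24.8 and 24.9 CPM in WT. Neither pair of M groups overlapped. In F the Hars samples overlapped (70.5 to 87.5 CPM in KO, 65.0 to 81.0 CPM in WT), and the Hars2 samples did so only narrowly (18.3 to 19.2 CPM in KO, 19.1 to 20.2 CPM in WT). On average the log2 fold change was 0.19 ± 0.0479 SE for Hars (adjusted p = 0.00533) and -0.20 ± 0.0537 SE for Hars2 (adjusted p = 0.00941). Strandedness of the counting is not given in the sources used here, so reads from the shared bases cannot be told apart.

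Kars and Dars, the lysine and aspartate enzymes of the multi-enzyme complex, were higher in KO with CP2. Kars in M was 63.2, 64.9, 65.4, 67.1 and 68.8 CPM in KO and 51.2, 53.7, 55.5, 58.3 and 62.4 CPM in WT. Its F samples overlapped, from 62.5 to 73.1 CPM in KO and from 59.3 to 68.5 CPM in WT, and the average log2 fold change was 0.17 ± 0.0418 SE (adjusted p = 0.00533). Dars in M was 57.5, 57.7, 60.1, 60.8 and 62.9 CPM in KO and 47.1, 50.3, 51.3, 53.3 and 53.6 CPM in WT. The M groups of both genes were apart. In F, Dars ran from 49.96 to 64.2 CPM in KO and from 49.6 to 58.9 CPM in WT, and the average was 0.15 ± 0.0506 SE (adjusted p = 0.0429). This average call of Dars was lost in 11 of the 20 fits that left out 1 sample, and without a filter on low counts, with a term for the share of reads not in genes, and without L266 and L291.

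Among the mitochondrial genes Tars2, for threonine, had the lowest adjusted p on average. Its M samples were 19.0, 19.0, 21.0, 21.2 and 21.9 CPM in KO and 25.8, 25.9, 26.6, 27.2 and 27.5 CPM in WT. In F they were 18.9, 19.1, 20.04, 20.6 and 20.7 CPM in KO and 20.8, 21.5, 21.8, 23.4 and 26.6 CPM in WT. Every KO sample lay under every WT sample of its letter, and the average log2 fold change was -0.29 ± 0.0619 SE (adjusted p = 0.0013). Its cytosolic partner Tars was not called (-0.09 ± 0.0544 SE, adjusted p = 0.35).

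Aars2, for alanine, was lower as well (log2 fold change -0.26 ± 0.0609 SE, adjusted p = 0.00344). The M samples were 18.6, 18.9, 19.7, 21.6 and 21.6 CPM in KO and 22.9, 25.1, 25.1, 25.7 and 26.2 CPM in WT, without overlap, while the F samples ran from 16.2 to 24.8 CPM in KO and from 20.7 to 28.1 CPM in WT. Aars, its cytosolic partner, was not called (-0.0125 ± 0.0394 SE, adjusted p = 0.895). With vehicle, the Aars2 samples of F were 18.5, 18.8, 19.6, 20.8 and 21.5 CPM in KO and 23.8, 23.8, 23.9, 24.1 and 24.2 CPM in WT. These did not overlap, yet the estimate missed the threshold (-0.27 ± 0.0862 SE, adjusted p = 0.0545).

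Ears2, for glutamate, had the largest decrease among the 13 average calls and the lowest level in CPM of those genes (log2 fold change -0.36 ± 0.108 SE, adjusted p = 0.0249). Its M samples were 3.83, 4.96, 6.11, 7.04 and 7.10 CPM in KO and 6.18, 7.17, 7.74, 8.95 and 9.16 CPM in WT, and its F samples 5.37, 5.92, 6.55, 7.61 and 7.89 CPM in KO and 7.08, 7.23, 7.54, 7.67 and 10.8 CPM in WT. Both pairs of groups overlapped. Eprs, the cytosolic gene that charges both glutamate and proline, was called in no comparison, with estimates over the 4 average comparisons from -0.0147 to 0.0024.

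Fars2, for phenylalanine, was the mitochondrial gene with the largest called increase on average (log2 fold change 0.30 ± 0.0783 SE, adjusted p = 0.0085). In M it was 15.1, 15.9, 16.2, 17.7 and 18.4 CPM in KO and 11.1, 11.95, 12.2, 13.8 and 15.01 CPM in WT, without overlap. In F it was 13.6, 15.5, 17.5, 18.5 and 19.0 CPM in KO and 11.4, 13.3, 15.1, 16.2 and 16.3 CPM in WT, with overlap. Of its exon bases, 8.7% are shared with Nrn1 on the opposite strand. The cytosolic subunits Farsa (-0.04 ± 0.056 SE) and Farsb (-0.12 ± 0.0509 SE) were not called.

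**Figure D4:**
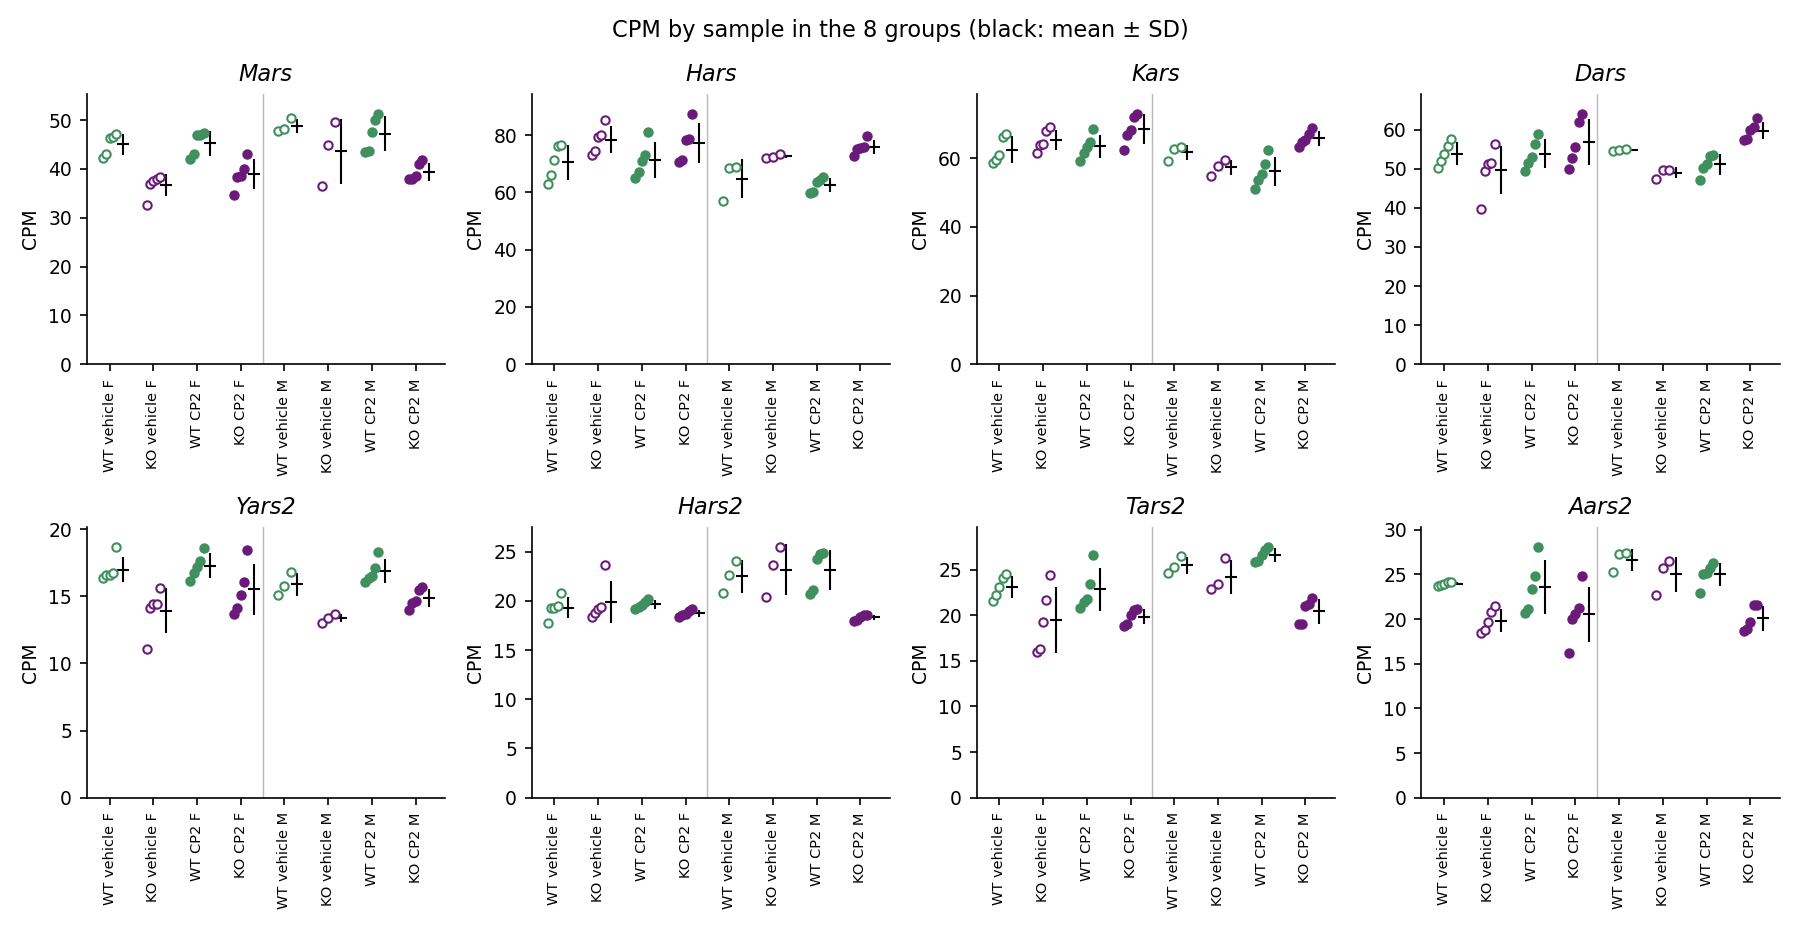
CPM of 4 cytosolic genes (upper panels: Mars, Hars, Kars, Dars) and 4 mitochondrial genes (lower panels: Yars2, Hars2, Tars2, Aars2) by sample in the 8 groups, letter F left and M right of the grey line, open points for vehicle and filled for CP2, purple for KO and green for WT, with mean ± SD in black. In KO CP2 M, Hars, Kars and Dars stand above and Mars, Hars2, Tars2 and Aars2 below WT CP2 M in every sample.

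Of the 13 average calls with CP2, 8 held under each of 11 other settings of the fit (Hars, Kars, Mars, Fars2, Hars2, Aars2, Tars2 and Ears2), although Ears2 was lost in 5 of the 20 fits that left out 1 sample of these groups. Without L266 and L291, which ended the average calls of Iars, Cars (adjusted p = 0.0562) and Dars (adjusted p = 0.0821), 10 genes were called on average and 5 in M, and without the WT sample L262 6 were called in M. The share of reads outside annotated genes averaged 7.33% in KO and 11.5% in WT of letter M, and 7.54% and 6.02% in letter F. With that share in the fit, 13 genes were called on average, 5 in M and 0 in F. Calls over all genes were 2952, 862 and 273 there, against 2972, 2558 and 511 in the main fit. Without L266 and L291 they were 2240 on average and 1278 in M. Of the glial markers, 2 of 7 microglia, 1 of 5 astrocyte and 1 of 5 oligodendrocyte markers were called higher in KO, beside 11.6% of all genes. With that share in the fit, Csf1r of microglia (adjusted p = 0.1) and Mbp of oligodendrocytes (adjusted p = 0.12) lost their calls. P2ry12 of microglia (adjusted p = 0.00546) and Gfap of astrocytes (adjusted p = 0.0164) kept theirs. The summed microglia markers ran from 277.1 to 386 CPM in KO and from 236 to 338.4 CPM in WT, the astrocyte markers from 1329 to 3009 against 1211 to 1593 CPM, and the oligodendrocyte markers from 6841 to 13110 against 7266 to 10480 CPM. All markers of these lists were detected in every sample, and their part in the synthetase differences was not tested. Of the cerebellum markers, 2 of 4 were called higher in KO with CP2 (median log2 fold change of the list 2.04), and 2 of the 4 were not detected in every sample. The called ones, Gabra6 and Pcp2, were also called in F (log2 fold change 9.85 and 6.91) but not in M. Marker sums in F were 138.7 to 395.8 CPM in KO (median 174.7) and 143.7 to 154.3 CPM in WT. In M they were 120.5 to 177.8 CPM in KO and 145.9 to 160 CPM in WT. The average call of Gabra6 was lost under 4 of 10 other settings, among them without L266 and L291, and that of Pcp2 under 0 of 11.

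The effect of CP2 itself was read within KO and within WT. In KO mice 2 of 37 genes were called on average, Dars higher and Hars2 lower, against 3.91% of all genes tested. The same 2 genes were called in M (5.1% of all genes). In F edgeR called 0 of 37, 3 had an unadjusted p under 0.05, DESeq2 called 0, and 0.0859% of all genes were called. An unadjusted p under 0.05 was reached by 11% of all genes in F. The test of the F and M difference called 0 of the 37 genes and 0.691% of all genes. This comparison and that of KO with WT under CP2 share the KO CP2 samples, so their values are not independent.

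For Dars the KO samples of M were 47.4, 49.8 and 49.8 CPM with vehicle, against the 57.5 to 62.9 CPM given for CP2, and the groups did not overlap. In F the vehicle samples were 39.9, 49.5, 51.3, 51.6 and 56.4 CPM and the CP2 samples 49.96, 52.8, 55.6, 61.9 and 64.2 CPM. The log2 fold change was 0.24 ± 0.055 SE on average (adjusted p = 0.00938) and 0.29 ± 0.0835 SE in M (adjusted p = 0.0345). For Hars2 the vehicle samples of KO were 20.4, 23.6 and 25.5 CPM in M, all above the 18.0 to 18.6 CPM with CP2. In F they were 18.4, 18.8, 19.2, 19.4 and 23.7 CPM with vehicle and 18.3, 18.6, 18.6, 18.9 and 19.2 CPM with CP2, which overlap. The average was -0.21 ± 0.0578 SE (adjusted p = 0.0274) and the value in M -0.34 ± 0.0869 SE (adjusted p = 0.0158).

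Both average KO calls of CP2 against vehicle were lost when the share of reads outside annotated genes entered the fit, where edgeR's calls over all genes went from 1002 to 0 and 5 of the 37 had an unadjusted p under 0.05. They were also lost with the title number as covariate (51 genes called in all) and with only the compared groups in the fit (159 genes). In M that share averaged 12.1% in the KO vehicle and 7.33% in the KO CP2 samples. In the same comparison 3 of 5 oligodendrocyte markers and 3 of 7 microglia markers were called higher with CP2, beside 3.91% of all genes, with oligodendrocyte sums of 6681 to 10150 CPM with vehicle and microglia sums of 214.4 to 323 CPM with vehicle. Without L266 and L291, Dars kept its average call (log2 fold change 0.24, adjusted p = 0.0314) and Hars2 did not (-0.22, adjusted p = 0.063). In the fits that left out 1 sample, the average call of Dars was lost without L322 and that of Hars2 without L279, L310 or L319.

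In WT mice edgeR called 0 of 37 genes for CP2 against vehicle and 0% of all genes, on average, in F and in M. Of the 37, 1 had an unadjusted p under 0.05 on average, 1 in F and 2 in M, and of 25601 genes 1031, 679 and 777 did. On average DESeq2 called 0 of the 37. All 20 cytosolic estimates were below 0 on average, from -0.0845 to -0.0039, with a median of -0.0245. By letter, 11 of the 20 were above 0 in F (median 0.0049) and 2 in M (median -0.0546). Of all 25601 genes, 13219 were above 0 on average (median 0.0055). The estimates of the 16 mitochondrial genes other than Lars2 ran from -0.11 to 0.13. The 95% intervals of these 36 genes reached at most from -0.37 to 0.34, so larger effects of CP2 in WT lay outside the interval of each.

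The interaction, which tests whether the CP2 effect differs between genotypes, was called for 0 of the 37 genes by edgeR, against 0.715% of all genes. An unadjusted p under 0.05 was reached by 6 of the 37 and by 14.6% of all genes. DESeq2 called 2 of the 37, and 600 of 17379 genes in all. Dars had the lowest adjusted p (log2 difference 0.29 ± 0.0774 SE, adjusted p = 0.0598). Fars2 stood at 0.35 ± 0.12 SE (adjusted p = 0.142) and Hars2 at -0.25 ± 0.082 SE (adjusted p = 0.135). The effect of CP2 on these genes was thus not shown to differ between KO and WT.

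Over all comparisons edgeR called 18 of the 37 genes at least once and 19 in none. DESeq2 called more of the 37 in some comparisons, 9 on average with vehicle and 16 with CP2. It also called more of all genes, 2386 of 19800 with vehicle and 3702 of 20607 with CP2, against 1708 and 2972 of 25601 in edgeR. Of the 11 cytosolic genes that edgeR did not call (Aars, Eprs, Farsa, Gars, Lars, Nars, Qars, Rars, Sars, Tars and Vars), the estimates over the 4 average comparisons ran from -0.16 to 0.11. Of the 8 mitochondrial ones, among them Nars2, Pars2, Rars2 and Vars2, they ran from -0.21 to 0.35. The upper end was Pars2 in KO against WT with CP2, which missed the threshold (adjusted p = 0.0546). Of the 5 cytosolic genes with a response element match in the promoter, Yars was called lower in KO with vehicle and Iars lower in KO with CP2, while Aars, Gars and Tars were called in no comparison.

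Genes that act beside the synthetases were read in the same fits. All genes of these lists called with vehicle on average lost their calls once the share of reads outside annotated genes entered the fit (adjusted p from 0.0629 for Eif2ak3 to 0.47 for Aimp2). Of 29 tested genes of the integrated stress response, 2 were called lower on average with vehicle, beside 6.67% of all genes (Mthfd2, a mitochondrial folate enzyme, log2 fold change -0.66 ± 0.147 SE, and Chac1, a glutathione-degrading enzyme, -0.43 ± 0.13 SE), and the median of the list was -0.0524. In F alone Atf3, a stress-induced transcription factor, was called higher (3.03 ± 0.775 SE, adjusted p = 0.0212). The Atf3 call was lost under 3 of 11 other settings, among them the share of reads outside annotated genes (adjusted p = 0.184). With CP2, beside 11.6% of all genes, 6 were called, 5 lower and 1 higher in KO, with a list median of -0.0311. The lower ones included Gdf15, a stress-induced secreted factor (-2.40 ± 0.776 SE), Mthfd2 (-0.41 ± 0.126 SE), Stc2, a secreted glycoprotein (-0.41 ± 0.137 SE), and Atf4 itself (-0.33 ± 0.0805 SE, adjusted p = 0.00493). Atf4 had 70.8 to 104.4 CPM in KO and 90.2 to 122.9 CPM in WT with CP2. The calls of Gdf15 and Stc2 were lost without L266 and L291. With vehicle Atf4 was not called (-0.29 ± 0.093 SE, adjusted p = 0.0545). Within KO, edgeR called 0 of the 29 for CP2 on average, and the Atf4 estimate was 0.03 ± 0.087 SE. There 3 of the 29 had an unadjusted p under 0.05, as had 18.1% of all genes. In M, 2 serine synthesis genes were called higher with CP2, Psat1 (0.25 ± 0.0743 SE, adjusted p = 0.0361) and Phgdh (0.37 ± 0.11 SE, adjusted p = 0.0391), and both calls were lost once the share of reads outside annotated genes entered the fit.

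The mitochondrial elongation factor Tufm, which carries charged transfer RNA to the mitochondrial ribosome, was lower in KO with vehicle (log2 fold change -0.44 ± 0.0843 SE, adjusted p = 0.000984) and with CP2 (-0.30 ± 0.0728 SE, adjusted p = 0.00482). So was Mrrf, the mitochondrial ribosome recycling factor (-0.49 ± 0.114 SE, adjusted p = 0.00679, and -0.32 ± 0.0981 SE, adjusted p = 0.0278). Of the 14 mitochondrial translation factors, 3 were called lower with vehicle, beside 6.67% of all genes, the third being Mtrf1l, a release factor. With CP2, 2 were called lower, a share near the 11.6% of all genes. Of 16 genes that process or modify mitochondrial transfer RNA, 0 were called on average with vehicle. There 1 of them had an unadjusted p under 0.05, as had 21.6% of all genes. In F Trmu, a tRNA thiolation enzyme, was called higher (0.49 ± 0.126 SE, adjusted p = 0.0176). The Trmu call was lost under 3 of 11 other settings, among them the share of reads outside annotated genes (adjusted p = 0.268). With CP2, 2 of the 16 were called, a share near the 11.6% of all genes. Nsun3, a methyltransferase of mitochondrial tRNA, was higher (0.47 ± 0.0974 SE, adjusted p = 0.00104) and Gtpbp3, a tRNA wobble-base modifier, lower (-0.21 ± 0.0671 SE, adjusted p = 0.031), a call lost without L266 and L291.

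Among 11 cytosolic elongation and termination factors, Eef1a2 and Eef1g were lower in KO with vehicle (log2 fold change -0.21 ± 0.0497 SE and -0.24 ± 0.0611 SE). The list median was -0.10, and 6.67% of all genes were called. In KO against WT with CP2 (11.6% of all genes), Eef1a1 (0.30 ± 0.042 SE, adjusted p = 9.758e-06) and Eef2 (0.17 ± 0.0378 SE, adjusted p = 0.00254) were higher. Both calls held under all 11 other settings. Eef1b2 was also higher there (0.14 ± 0.048 SE, adjusted p = 0.0474), a call lost under 4 of 11. With CP2 against vehicle in KO, 4 were called beside 3.91% of all genes, all higher: Eef1b2 (0.26 ± 0.0519 SE), Eef1g (0.21 ± 0.0574 SE), Eef1a1 (0.21 ± 0.0456 SE) and Eef2, the translocase (0.16 ± 0.0409 SE). Of these, Eef1a1, Eef1b2 and Eef2 were also called in the interaction (0.31 ± 0.0642, 0.31 ± 0.073 and 0.27 ± 0.0577 SE), beside 0.715% of all genes. Once the share of reads outside annotated genes entered the fit, the 4 calls in KO (adjusted p from 0.433 to 0.705) and the 3 in the interaction (from 0.461 to 0.577) were lost. Of 16 synthetase-complex and synthetase-like genes 1 was called on average with vehicle and 1 with CP2, no larger a share than among all genes (6.67% and 11.6%). Aimp2, a scaffold of the multi-enzyme complex, was lower in KO with vehicle (-0.33 ± 0.0942 SE, adjusted p = 0.0265), and Aimp1, another scaffold, was higher in KO with CP2 (0.20 ± 0.0457 SE, adjusted p = 0.00219).

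Of 7 eIF2 alpha kinases and phosphatases, Eif2ak2 (the RNA-activated kinase PKR) and Eif2ak3 (the endoplasmic reticulum kinase PERK) were higher in KO with vehicle (log2 fold change 0.35 ± 0.111 SE and 0.23 ± 0.0601 SE), and Eif2ak2 was higher with CP2 (0.47 ± 0.0959 SE). Among all genes, 6.67% were called with vehicle and 11.6% with CP2. In KO, CP2 went with a lower Eif2ak4, the kinase GCN2 that senses uncharged transfer RNA (-0.22 ± 0.0656 SE, adjusted p = 0.0495), a call lost under 7 of 11 other settings, among them the share of reads outside annotated genes (adjusted p = 0.903). Wars is also known as an interferon-induced gene. Of 10 interferon response genes, 2 were called higher in KO with CP2, beside 11.6% of all genes. They were Ifit3 (1.20 ± 0.169 SE) and Oasl2 (0.73 ± 0.193 SE), while Wars stood at -0.06 ± 0.0453 SE (adjusted p = 0.446) in that comparison.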

How the data were processed

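PolyA RNA-seq of 36 mouse brain samples was used as the table of raw counts per Ensembl gene that the authors deposited. Per the submitters' processing notes, the tools were STAR and HTSeq with build GRCm39; versions, strandedness and annotation release are not given in the sources used here. The 5 HTSeq summary lines were left out of library sizes. From the counts, genes were filtered (filterByExpr on the 8 groups) and tested with edgeR 4.0.16 in R 4.3.3 (TMM, robust quasi-likelihood fit, 1 coefficient per group, 16 contrasts), with Benjamini-Hochberg adjustment over 25601 genes and calls at an adjusted p under 0.05. F and M were weighted equally in averages. CPM used TMM library sizes, and lengths came from GENCODE M21, which also paired symbols with 52073 identifiers. The scripts were tested on simulated data. Of the 37 members, 1 is included in counts and fits but is not reported here by name, and some promoter matches are not shown. The members and gene lists were chosen with earlier results of these data known. All called members could be named, with full values for at most 6 in each direction per comparison and their partner genes, and at most 4 called genes per other list. Alternatives were DESeq2 1.42.0, RLE factors, other filters, covariates (2 surrogate variables from sva 3.50.0 among them), other sample sets and, added after the data were seen, leaving out L266 and L291. P-values measure the spread between samples, which may be partly technical. Over 66 pairs of samples within groups the mean chi-square per gene was 14.75 to 166.4, so no pair agreed within sampling noise.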

Additional observations from a re-analysis of the deposited data

Results flagged for a closer look

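In the 6 groups of 5 samples, each gene was examined for 1 sample standing far from the other 4, judged by its gap to the nearest of them over the range of the group (above 0.71). Of 222 such sets 11 did so, where chance gives about 1 in 20, or 11.1. Lars2 stood out by size, with 4110 CPM in the KO vehicle F sample L246 and 559.7 CPM next. Hars2 was highest in KO vehicle F (23.66 CPM in L279, next 19.4) and Ears2 in WT CP2 F (10.81 CPM in L257, next 7.667). Wars was highest in the same sample L257 (103.7 CPM, next 93.72) and lowest in KO CP2 F (74.44 CPM in L201, next 91.23). Mars was lowest in KO vehicle F (32.64 CPM in L281, next 36.94). Without the sample that stood apart, the F call of Mars with vehicle (L281), the F call of Yars2 with vehicle (L252), the average call of Ears2 with CP2 (L257) and that of Hars2 for CP2 against vehicle in KO (L279) were lost. The F call of Yars2 did not depend on L252 alone, since it was lost in 8 of the 10 fits that left out 1 sample. It was also lost under 6 of 11 other settings. Yars was highest in KO vehicle F (93.39 CPM in L282, next 83.97). In WT vehicle F sample L252 Yars2 was highest (18.66 CPM, next 16.73) and Pars2 lowest (4.695 CPM, next 5.706). Qars was highest in KO CP2 M (48.52 CPM in L299, next 44.29) and Vars in WT CP2 F (48.64 CPM in L228, next 42.0).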

How the results depend on the processing

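Of 36 calls in 18 genes, 10 held under all 11 other settings, 16 in every fit that left out 1 sample, and 9 under both. No estimate of a called gene changed sign. Adding as covariate the share of reads not in genes ended 21 calls, leaving out L266 and L291 ended 13, and testing without a filter 12. The number of members called moved by over 1.5 times as follows. KO against WT with vehicle (5 on average) gave 0 with that share, 0 with 2 surrogate variables and 9 with DESeq2; in F (4) it gave 1 without a filter, 0 with that share and 0 with only the compared groups. KO against WT with CP2 in M (10) gave 5 with that share and 5 without L266 and L291. CP2 against vehicle in KO (2 on average) gave 1 without a filter, 0 with that share, 0 with title number, 0 with only the compared groups and 1 without L266 and L291. In M (2) it gave 0 without a filter, 4 with a stricter one, 0 with that share, 1 with title number, 1 with surrogate variables, 1 with the hippocampal CA score, 5 with DESeq2 and 0 without L266 and L291. The interaction (0) gave 1 with the stricter filter and 2 with DESeq2. The cause was not tested. Leaving out 1 sample gave 1 to 7 for KO against WT with vehicle on average, 1 to 4 in F and 0 to 0 in M. With CP2 the ranges were 10 to 14 on average, 0 to 1 in F and 6 to 13 in M. CP2 against vehicle gave 1 to 3 in KO on average, 0 to 0 in F, 0 to 3 in M and 0 to 0 in WT on average, and the interaction 0 to 1. Class medians moved beyond the SD between samples in 5 of 329 cases. No paired analysis was possible because no title number is shared between groups. The lowest counts per sample were 256 for Ears2 and 166 for Pars2, and what this limits was not tested.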
